A study of Saccharomyces cerevisiae with 20 samples.

Results

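The strains of a barcoded histone mutant library were compared in relative level within 1 pooled yeast culture, before and after it entered stationary phase. The early side comprised the 6 libraries of days 1, 2 and 3, and the late side the 4 libraries of days 7 and 14, with both fractions, quiescent and non-quiescent, of every day, which makes 10 of the 20 libraries of the series. The sides lie before and after the day that the study took as the start of stationary phase, and day 5 was on neither side. The barcodes hold no reading of growth arrest, so the stage is known from the day alone. All strains derived from Saccharomyces cerevisiae JDY86, a MATa strain in which the HHT1-HHF1 histone gene pair is replaced by NatMX4 and the HHT2-HHF2 pair by a copy that encodes 1 altered histone, H3 or H4, next to URA3. The wild type of the library carries the same replacement without an alteration. The pool was grown in YPD, diluted into fresh YPD and kept shaking, and at each day an aliquot was parted on a Percoll density gradient. The culture is therefore the only one, the days are serial samples of it, and the fractions of a day share an aliquot, so that p-values measure the scatter between these libraries and do not cover differences between cultures.

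Histones H3 and H4 form the core tetramer around which DNA winds in the nucleosome, and their N-terminal tails extend from the particle and carry most of the acetylated and methylated lysines. When glucose runs out, yeast cells leave the cell cycle, repress most genes and, in part, enter quiescence as dense cells that survive for a long time. Deacetylation of H4 lysine 16 lets Sir3 bind the basic patch of the H4 tail and silence chromatin, and loss of histone acetylation goes along with the entry into quiescence.

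Each strain was counted through a pair of synthetic 20-base barcodes, the up and the down barcode, which were amplified in separate reactions. The barcodes of the wild type and of the 9 strains that changed are given here, since each level below is a count of these oligonucleotides and the pair gives 2 readings of the same cells.
wild type up: ttgctttgaggacgtcccac
wild type down: ccaccttgtccttaggacac
H3G90A up: cactcgacgcaaggtttata
H3G90A down: cgcgacatcatagcaactta
H3Q76E up: agggttattccactctcctg
H3Q76E down: attatccttaggcgcggcgt
H3del4-15 up: tagtgacttagaccctccgt
H3del4-15 down: tatacttgcgtaacgggccg
H4R36A up: tggcagagcaaatcccgcaa
H4R36A down: ctgccggataatcaaagcta
H4K59Q up: gtagctccgatcactttctg
H4K59Q down: catactctagtgcattgcct
H4T96D up: gggctacctctcaattatac
H4T96D down: cgctcctaagacattgttac
H4K5,8,12,16Q up: aacactagaggaacttcgcc
H4K5,8,12,16Q down: aggcataacccatgtttacc
H4del9-12 up: gctcacactaaagggcatca
H4del9-12 down: cacgacgtaacatgaggtcc
H4del17-24 up: gctgcggctaaaccagaaca
H4del17-24 down: acgtgacagcgagcttatcg
A name such as H3G90A gives the histone, the residue without the initiator methionine and its replacement, and del4-15 a deletion of residues 4 to 15. The down barcode of H4K5,8,12,16Q had no count in any of the 10 libraries, so that this strain rests on its up barcode alone.

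The 10 libraries held 153369 to 182685 counts each. Of 422 named strains 347 averaged 10 or more counts per library over the whole series and were kept. They comprised the wild type, 297 strains with 1 substitution, 3 with more than 1, and 46 with a deletion in a tail. The median kept strain had 272 to 359 counts in a library. A level is the log2 of a strain's summed up and down count less that of the median strain of the library, so it tells a strain's abundance relative to the others and not a number of cells. Within a fraction, the early libraries correlated at 0.93 to 0.98 over the 347 strains (Pearson's r), and libraries of different fractions at 0.88 to 0.96. The quiescent library of day 14 stood furthest from the other 9, with a median r of 0.86 against up to 0.96. The labels of day 5 ran against the neighbouring days: its quiescent library correlated at 0.97 with the non-quiescent library of day 3 and at 0.91 with the quiescent one, and its non-quiescent library at 0.98 with the quiescent and at 0.90 with the non-quiescent library of day 3. Day 5 entered no comparison except where it is named.

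Most strains differed little between the sides. The difference, late minus early with the fraction as a block, had a median of -0.03 and an SD of 0.48 on the log2 scale over the 347 strains, and 307 of them (88.5%) lay within 1.5-fold. There were 6 strains more than 2-fold higher and 6 more than 2-fold lower. The median standard error of a strain's difference was 0.18. In edgeR's quasi-likelihood test with Benjamini-Hochberg adjustment over all 347 strains, 9 strains changed (2.59%), of which 7 rose (2.02%) and 2 fell (0.576%). At an unadjusted p under 0.05 there were 68 strains (19.6%), 38 higher and 30 lower. The early and late libraries did not overlap for 7 strains (2.02%), 5 of them higher and 2 lower late. The adjusted calls depended on the choice of libraries: no strain was called without the fraction block, without the non-quiescent library of day 14, without both libraries of day 7 or both of day 14, with day 5 on the late side, in the quiescent libraries alone or over the means of both fractions per day, whereas DESeq2 called 32. Of 31 alternatives, H3del4-15 was called under 23 and H4T96D, the least often called of the 9, under 9. With the wild type as the scale, 15 strains were higher and 2 lower.

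**Figure D1:**
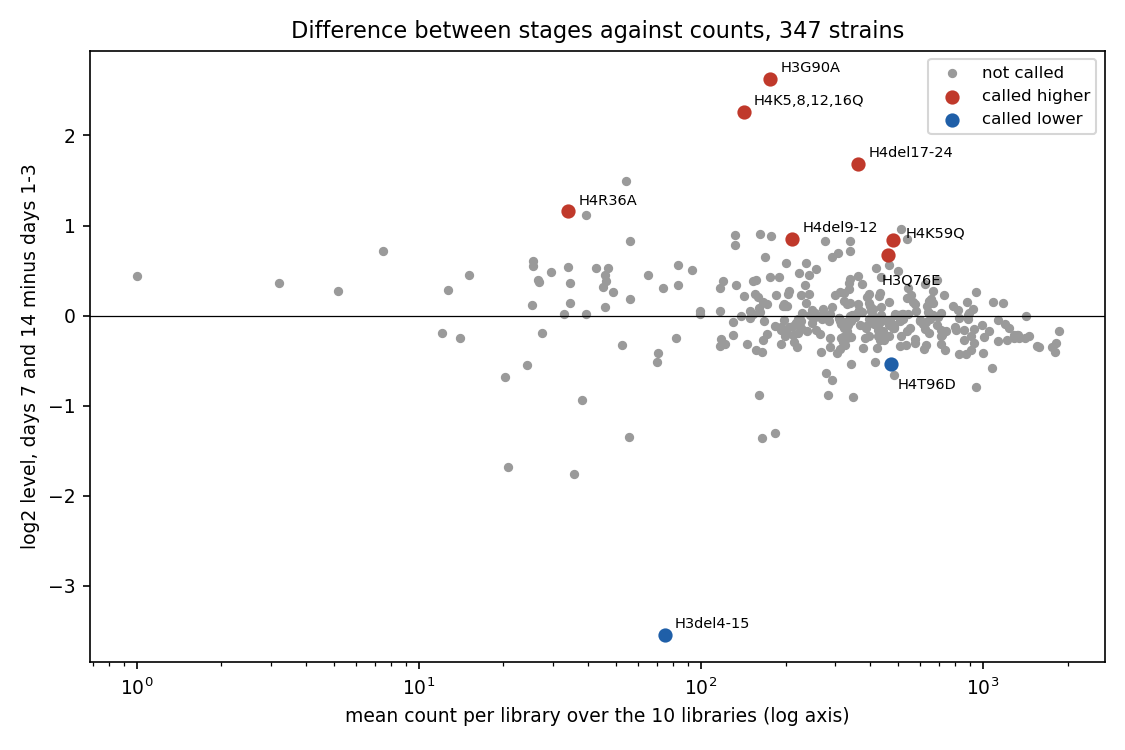
Difference in log2 level between days 7 and 14 and days 1 to 3 (y axis) against the mean count per library over the 10 libraries (x axis, log scale) for 347 strains, with the 7 called higher in red and the 2 called lower in blue. Most strains lie within 1.5-fold of 0, H3G90A stands highest at 2.63 and H3del4-15 lowest at -3.54.

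H3 glycine 90 lies at the start of the second helix of H3, in the folded core. In the non-quiescent fraction H3G90A stood at -2.83, -3.68 and -3.23 on days 1, 2 and 3 and at -0.71 and -0.26 on days 7 and 14. The quiescent libraries held it at -3.73, -2.47 and -0.67 early and at 1.09 and -0.66 late. The quiescent library of day 3 was thus already at the late level, and the sides overlapped through that library alone. The difference was 2.63 ± 0.63 (SE, 10 libraries), a 6.20-fold rise (edgeR adjusted p = 0.0322), and both barcodes rose, by 2.51 and 2.69.

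H4K5,8,12,16Q changes the 4 lysines of the H4 tail that are acetylated to glutamine, which resembles acetyl-lysine. Its levels in the non-quiescent fraction were -3.34, -3.57 and -2.18 early and -0.75 and -0.51 late. The quiescent libraries gave -2.76, -2.78 and -1.34 early and 0.52 and -0.84 late. All late libraries lay above all early ones, and day 3 was the highest early day in both fractions. The difference was 2.26 ± 0.45 (SE), 4.81-fold (edgeR adjusted p = 0.0131), from a mean of 58.0 counts per library to 267.75. This strain has no second barcode reading. The H3 counterparts were not called: H3K4,9,14,18Q differed by 0.23 ± 0.40 and H3K4,9,14,18R by -1.35 ± 0.59 (edgeR adjusted p = 0.814 and 0.149).

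H4del17-24 lacks most of the basic patch of the H4 tail, which binds Sir3 and Dot1. Its level went from -1.21, -0.86 and -0.38 in the early non-quiescent libraries to 0.12 and 0.66 in the late ones. The quiescent levels went from -1.46, -1.29 and -0.19 to 1.94 and 0.43. The sides did not overlap, and day 3 again lay closest to the late side. The difference was 1.69 ± 0.43 (SE), 3.22-fold (edgeR adjusted p = 0.0322), with 1.70 from the up and 1.65 from the down barcode. The shorter H4del9-12, which removes lysine 12, stood at -1.78, -1.71 and -1.94 early and at -0.93 and -0.78 late in the non-quiescent fraction. Quiescent levels were -0.45, -0.66 and -0.45 early and at -0.04 and 0.52 late. Each fraction moved up without overlap within itself, while the fractions differed by more than the sides did. Its difference was 0.86 ± 0.12 (SE), 1.81-fold (edgeR adjusted p = 0.0131), and the barcodes differed in size, with 1.02 from the up and 0.63 from the down barcode.

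The other single substitutions that rose, all in the core, rose by less than H3G90A. H4R36A, in the first helix of H4, was a rare strain with 11 to 69 counts per library. It moved from -4.12, -4.87 and -4.50 to -3.46 and -3.03 in the non-quiescent fraction and from -3.18, -3.91 and -3.14 to -2.40 and -2.30 in the quiescent one, a difference of 1.16 ± 0.21 (SE, edgeR adjusted p = 0.0332). Its up barcode gave 0.94 and its down barcode, with a mean of 8.5 early counts, 1.45. H4K59Q, in the second helix of H4, moved from -0.19, -0.84 and -0.80 to 0.34 and 0.74 in the non-quiescent fraction. Among quiescent libraries it moved from 0.91, 0.73 and 0.53 to 1.33 and 1.19, with a difference of 0.84 ± 0.20 (SE, edgeR adjusted p = 0.0322), 0.78 by the up and 0.87 by the down barcode. H3Q76E lies on the LRS surface, where substitutions are known to weaken rDNA silencing. It moved from -0.35, -0.44 and -0.44 to 0.40 and 0.52 in the non-quiescent fraction and from 0.84, 0.71 and 0.45 to 1.16 and 1.11 in the quiescent one, a difference of 0.67 ± 0.11 (SE, edgeR adjusted p = 0.0131), 0.66 by the up and 0.61 by the down barcode. In these 3 strains the late libraries of each fraction lay above its early ones, and the quiescent fraction lay above the non-quiescent one on every early and late day, so that the sides overlapped when the fractions were pooled.

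H3del4-15 lacks the part of the H3 tail that holds lysines 4, 9 and 14, and it fell further than any other strain. Its levels in the non-quiescent fraction were -2.65, 0.11 and -1.37 early and -4.31 and -4.32 late. In the quiescent fraction they were -2.79, -2.21 and -1.98 early and -5.98 and -6.82 late. The sides did not overlap, although the early non-quiescent libraries differed among themselves by more than those of the other fraction. The difference was -3.54 ± 0.56 (SE, edgeR adjusted p = 0.0131), 11.6-fold lower, from a mean of 117 counts per library to 10.25, with -3.64 from the up and -3.67 from the down barcode. H4T96D, near the C-terminus of H4, fell by little. It moved from 1.09, 1.03 and 1.43 to 0.58 and 0.36 in the non-quiescent fraction and from 0.25, 0.12 and 0.33 to -0.22 and -0.05 in the quiescent one. The difference was -0.54 ± 0.12 (SE, edgeR adjusted p = 0.0438), -0.59 by the up and -0.53 by the down barcode.

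**Figure D2:**
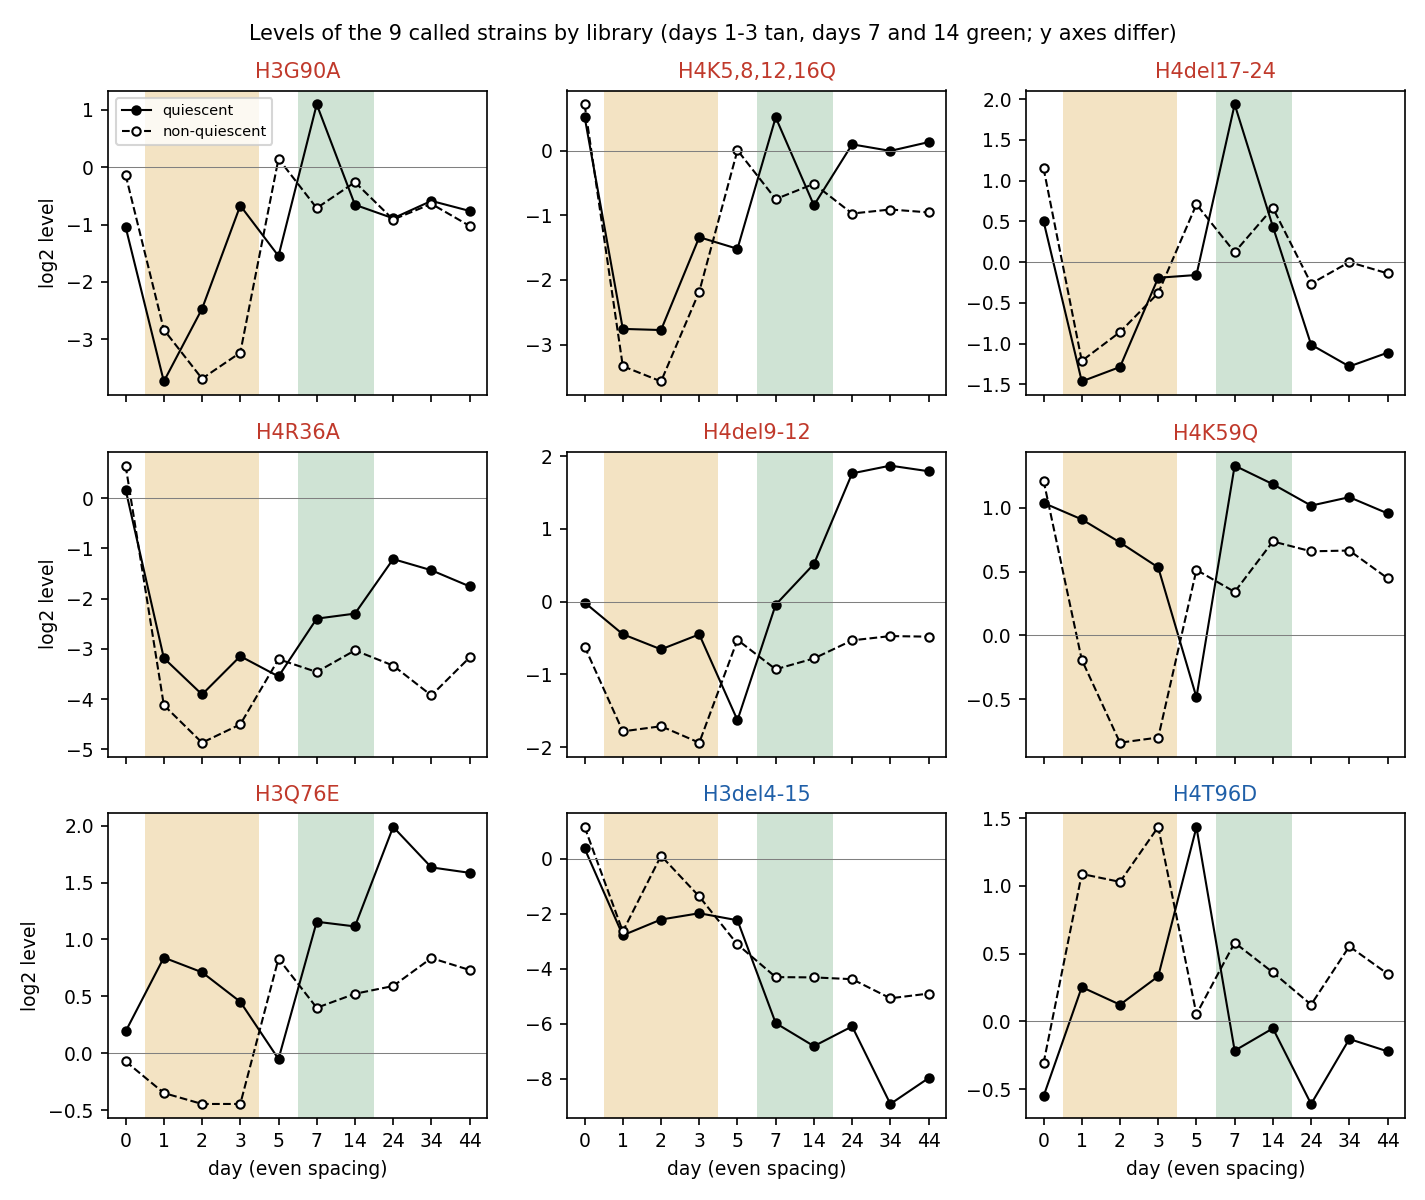
Log2 level relative to the median strain (y axis, its range differing between panels) by day (x axis, evenly spaced) of the 9 called strains, with filled points for the quiescent and open points for the non-quiescent library of each day. The early days 1 to 3 are shaded tan and the late days 7 and 14 green; at day 5 the libraries of the fractions cross in several panels, H4T96D and H4del9-12 among them.

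Of the 7 strains that rose, 6 had a lower mean level over days 1 to 3 than over the 2 libraries of day 0, against 150 of all 347 strains (43.2%). H4R36A went from 0.41 at day 0 to -3.95 on days 1 to 3 and -2.80 on days 7 and 14, H4K5,8,12,16Q from 0.63 to -2.66 and -0.40, H3G90A from -0.59 to -2.77 and -0.14, and H4del17-24 from 0.83 to -0.90 and 0.79. These 4 strains thus stood lower on the early days than at day 0, and of the 4 only H3G90A stood higher on the late days than at day 0. H3Q76E was the exception, with 0.06 at day 0 and 0.13 early. These values share the early libraries with the comparison itself and were not tested. Over all 347 strains the first interval held the larger differences, with an SD of 1.33 between day 0 and days 1 to 3 against 0.48 between the early and the late side. On days 24, 34 and 44 the 7 strains went different ways. In the quiescent fraction H4del9-12 had a mean of 1.81 and H3Q76E of 1.74, above their late levels, whereas H4del17-24 had one of -1.14. H3del4-15 stood at -7.67 there, on 3, 1 and 1 counts in the libraries of days 24, 34 and 44, too few to tell a further fall.

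Several strains with large differences were not called. Among the 7 strains without overlap, H4del20-23 stood between -0.10 and 0.42 early and between 0.74 and 2.01 late, a difference of 0.96 ± 0.27 (SE) that missed the threshold (edgeR adjusted p = 0.0528). H3K122Q, a substitution at an acetylated lysine close to the nucleosome dyad, stood at -4.48 to -3.15 early and at -3.04 to -1.81 late (1.12 ± 0.30, edgeR adjusted p = 0.0637). H3D106A differed by 0.83 ± 0.26 and H3Q5E by -1.30 ± 0.42 (edgeR adjusted p = 0.0904 and 0.0962). H4R17A, at an arginine of the basic patch, stood 2.83-fold higher (SE 0.54 on the log2 scale), with the quiescent library of day 14 at -3.20 and the other 3 late libraries at -1.64 to -1.55. The largest uncalled falls were those of H3Q68A, H3L60A and H3F104A in the core of H3. They differed by -1.76 ± 0.82, -1.68 ± 0.69 and -1.36 ± 0.54. In all 3 the quiescent library of day 14 was the lowest of the 10, and that library held 2 counts of H3Q68A and 2 of H3L60A.

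Tail deletions had higher median differences than the strains as a whole. The 15 kept deletions of the H4 tail, of 20 in the library, had a median difference of 0.45, and 13 of them were above 0, against a median of -0.03 and 160 of 347 (46.1%) over all strains. Of these, 2 were called higher (13.3%), against 7 of 347 (2.02%) over all strains. At an unadjusted p under 0.05, 6 were higher and none lower, against 38 (11%) and 30 (8.65%) of all strains. The list's median level was low in the early libraries, from which the difference is taken, at -0.95 against 0.04 for all strains. The named ends of the list were H4del17-24 and H4del9-16. The latter, the most abundant of them with a mean of 1924 early counts, differed by -0.17 ± 0.24. Deletions of neighbouring stretches differed: H4del5-12 stood at 0.85 ± 0.24, H4del9-20 at 0.78 ± 0.34 and H4del1-12 at 0.65 ± 0.31, whereas H4del13-16, which removes lysine 16 but not lysine 12, stood at -0.00 ± 0.13 and H4del1-4 at 0.05 ± 0.54. The deletion of residues 17 to 20 stood at 0.23 ± 0.30 and that of 21 to 24 at 0.16 ± 0.27, both below H4del17-24. The cells of these strains carry overlapping deletions, and the strains are not replicates of each other.

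The 31 kept deletions of the H3 tail, of 51, had a median of 0.14 with 23 above 0, against 46.1% above 0 over all strains. None was called higher and 1 lower, H3del4-15, against 2.02% and 0.576% of all strains. The nearest deletions differed from it: H3del4-20 stood at 0.60 ± 0.27, H3del5-12 at 0.32 ± 0.40, H3del9-16 at 0.24 ± 0.45 and H3del1-12 at 0.11 ± 0.38. H3del9-20 and H3del13-24 lay below 0, at -0.94 ± 0.52 and -0.55 ± 0.41. At the end of the tail H3del33-36, which removes lysine 36, was the highest with 0.90 ± 0.28 (edgeR adjusted p = 0.0962). Many H3 deletions were rare in both sides, and the list's median level was -1.82 early, against 0.04 for all strains.

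**Figure D3:**
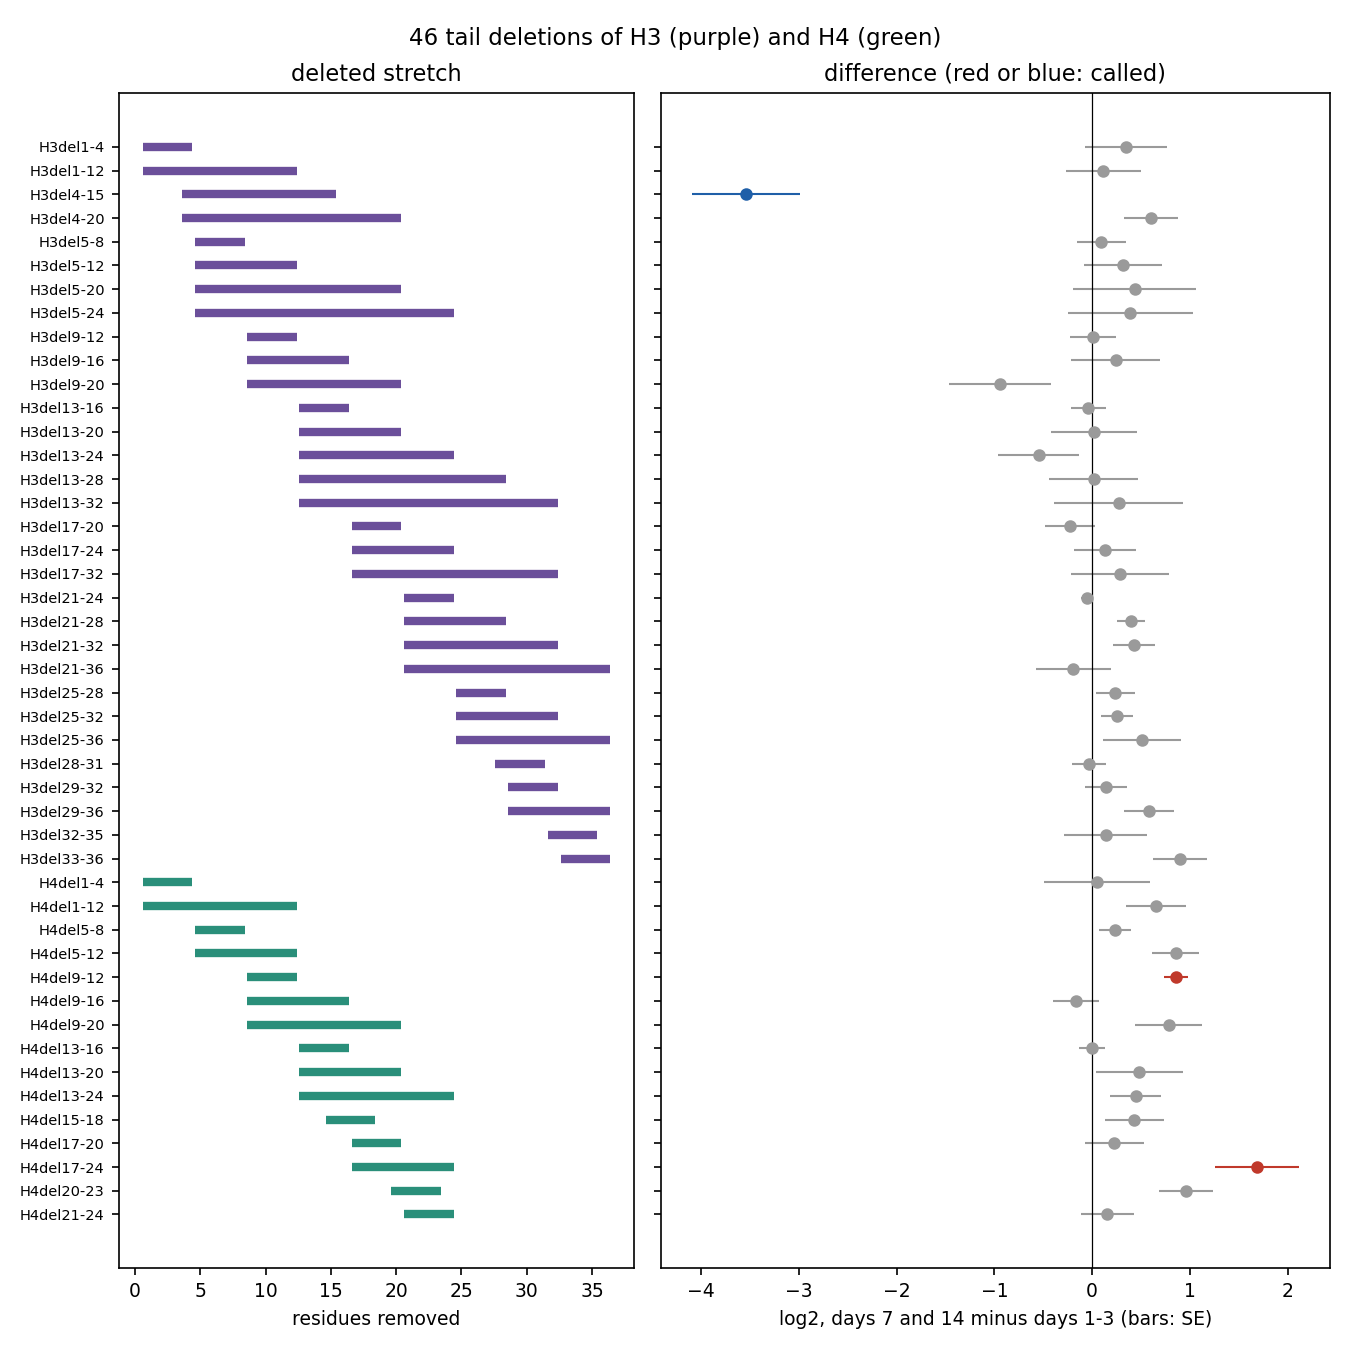
Left, the residues removed in each of the 46 kept tail deletions of H3 (purple) and H4 (green); right, the difference in log2 level between days 7 and 14 and days 1 to 3 with its standard error, called strains in colour. Of the 15 H4 deletions 13 lie above 0, and H3del4-15 stands alone at -3.54.

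Single substitutions had a median difference of -0.06, with 41.1% above 0, 4 called higher and 1 lower, together 1.68% against 2.59% of all strains. In the H4 tail (residues 1 to 29) 17 of 47 were above 0 and none was called, with a median of -0.12 and H4R17A and H4R3K (-0.64 ± 0.40) at the ends. The basic patch, residues 16 to 20, lay higher, with 9 of 12 above 0 and a median of 0.16. None of the 12 was called, and 4 were higher at an unadjusted p under 0.05, against 38 of 347 (11%) over all strains. H4R17K stood at 0.43 ± 0.16 and H4K20R, the lowest, at -0.23 ± 0.11. Beyond the first helix (7 of 12 above 0) and the second helix (15 of 30) of H4, the strains lay mostly below 0: none of the 8 strains of the second loop (residues 77 to 81) was above 0, 4 of 13 of the third helix were, and 2 of 11 of the C-terminus. Their medians were -0.28, -0.27 and -0.17, and 1 of these strains, H4T96D, was called. The ends of these lists were H4K77R (-0.06) and H4R78K (-0.88), H4Y88F (0.53) and H4D85A (-0.68), and H4F100A (0.35) and H4T96D. In the first and second helices H4L37A (-0.89) and H4I66A (-0.71) were lowest. The first loop of H4 held 4 kept strains, all above 0, from H4G42A at 0.02 to H4K44R at 0.30. The direction of H4G42A turned under 9 of 30 alternatives, over which its difference ran from -0.63 to 0.66.

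In H3 the group furthest from the median of all strains was the second loop, with a median of 0.36 over 3 kept strains, all above 0, from H3K115R at 0.10 to H3K115Q at 0.72. H3K115Q held 3 to 10 counts per early and 6 to 12 per late library. It passed the filter only through day 0, with 65 and 72 counts, and ran from 0.14 to 1.35 over the alternatives. H3V117A, the strain between them, held 20 to 47 counts, so the place of this group rests largely on rare strains. The tail had a median of -0.06 (29 of 77 above 0, none called), between H3K36Q (0.88 ± 0.22, edgeR adjusted p = 0.0541) and H3Q5E. The first helix had a median of -0.01 with H3Q76E and H3Q68A at its ends, and the second helix -0.06 with H3G90A and H3F104A. The alpha-N helix and linker ranged from H3S57D at 0.53 to H3L60A, the first loop from H3K79A at 0.09 to H3F78A at -0.36, and the last helix together with the C-terminus from H3K122Q to H3G132A at -0.25. The LRS surface as a whole had a median of -0.10, with 7 of 21 above 0 and 1 called (4.76%). Over all strains 46.1% were above 0 and 2.59% were called, and differences of the H3 lists from these shares were not tested. At the tip of the tail, residues 1 to 8, 5 of 15 were above 0, with H3K4A highest at 0.35.

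**Figure D4:**
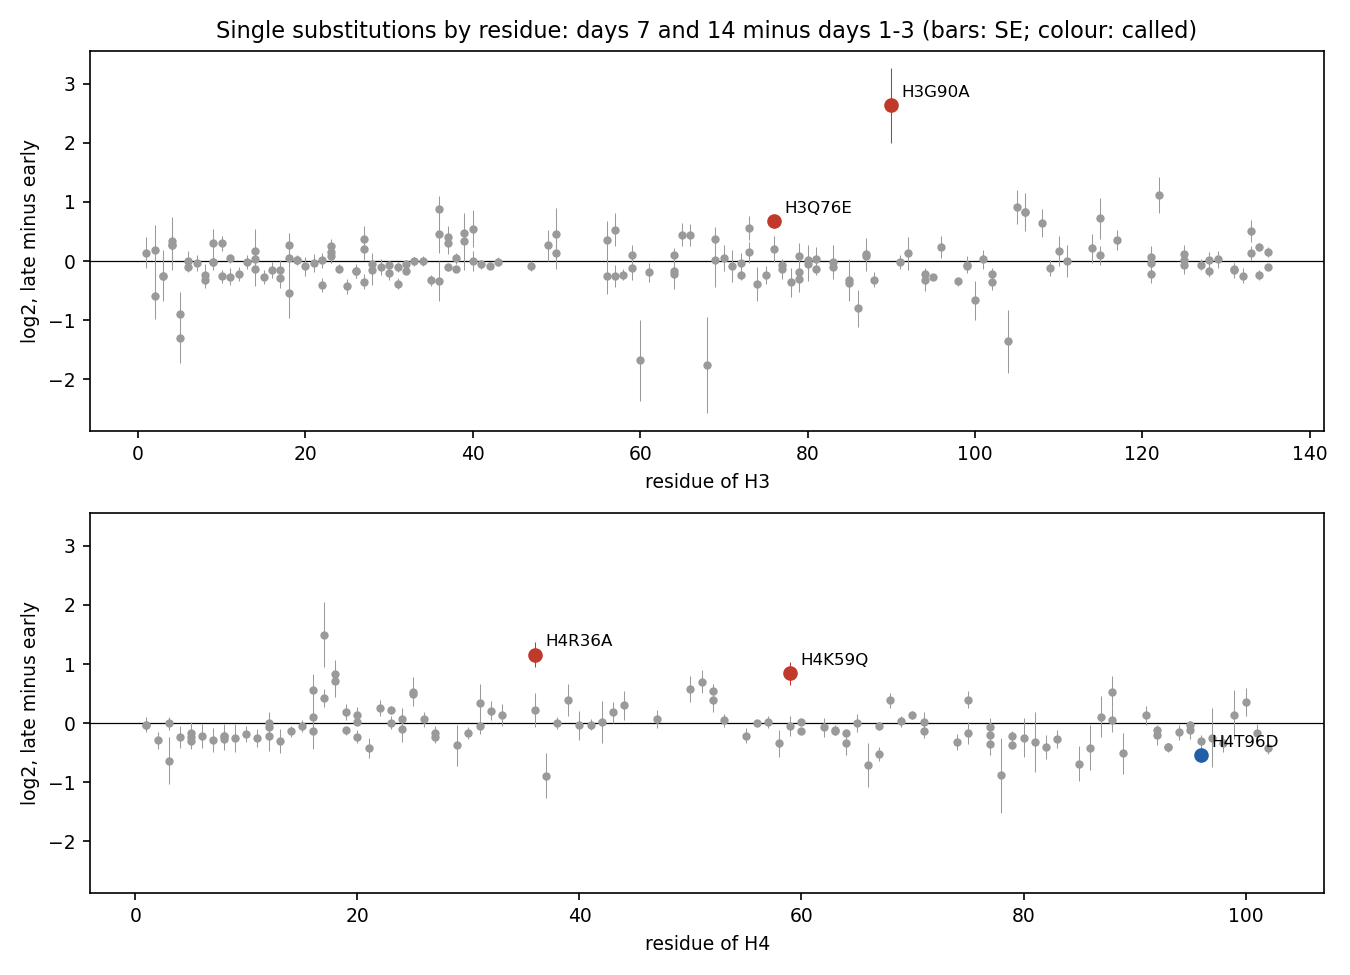
Difference in log2 level between days 7 and 14 and days 1 to 3 (y axis, with standard error) by residue (x axis) for the 297 single substitutions in H3 (top) and H4 (bottom), called strains in colour. All 8 strains at H4 residues 77 to 81 lie below 0, as do 9 of 11 in the C-terminus.

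The lists of residues that carry marks held 1 call, against 2.59% called over all strains. The acetylated tail lysines had a median of -0.01, with 13 of 27 above 0 and none called, between H4K16A (0.56) and H3K18Q (-0.54). Lysines 4, 36 and 79 of H3, which are methylated, had a median of 0.26 with 6 of 9 above 0 and none called. H3K36Q was the highest of these and H3K36A (-0.33 ± 0.34) the lowest. The core lysines that can be modified had a median of -0.03, and 1 of 25 (4.0%), H4K59Q, was called. H4K79R, the lowest of them, differed by -0.38 ± 0.07 (edgeR adjusted p = 0.0528).

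Over all single substitutions 1.68% were called and 41.1% were above 0, against 2.59% and 46.1% of all strains. Each kind below held 0 or 1 call, and differences in calls between the kinds were not tested. By kind of substitution, lysine to glutamine had a median of -0.03 (24 strains, 1 called), lysine to arginine 0.01 (24, none called) and lysine to alanine 0.04 (20, none called). At the 21 lysines with both, glutamine was above arginine at 11 and below it at 10, with a median difference of 0.06 and the extremes at H4K59 (0.89) and H3K18 (-0.81). Arginine to alanine had a median of 0.01 (20, 1 called), with H4R67A lowest at -0.52, and arginine to lysine one of -0.12 (24, none called). Serine or threonine to alanine and to aspartate both had a median of -0.14, with 8 of 26 and 4 of 19 above 0. One of the latter was called lower, H4T96D. H3S86D lay lowest among them at -0.80 ± 0.31, and H3S10A (0.30) and H4T82A (-0.40) bounded the former. Alanine to serine had a median of -0.05, between H3A114S (0.22) and H4A89S (-0.51). Hydrophobic fold residues changed to alanine had a median of -0.06, with 13 of 28 above 0 and H4I50A highest at 0.58 ± 0.22.

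At the residues of the called substitutions, the other kept substitution was not called, against 2.59% called over all strains. Among so few partners the lack of a call was near that share. H3G90A had no kept partner. H3Q76A differed by 0.20 ± 0.23, H4R36K by 0.22 ± 0.28, H4K59R by -0.04 ± 0.17 and H4T96A by -0.31 ± 0.11 (edgeR adjusted p = 0.591, 0.556, 0.969 and 0.25). The differences between partners were not tested.

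The study ranked strains by their level in the quiescent fraction alone and at later days, relative to the start of stationary phase. The comparison here covers both fractions and ends at day 14, so it is no test of that ranking. The strains that the study followed further did not pass the test between the sides. H4 histidine 18, which lies beside lysine 16 in the basic patch, came closest. H4H18Q stood at 0.43, -0.50 and -0.49 in the early and 0.52 and 1.09 in the late quiescent libraries, and at -0.86, -0.54 and -0.40 and then 0.06 and 0.09 in the non-quiescent ones. Apart from the quiescent library of day 1, the early values lay below the late ones, and the difference was 0.83 ± 0.23 (95% interval 0.29 to 1.38, edgeR adjusted p = 0.0541). H4H18A differed by 0.72 ± 0.27 (0.08 to 1.36, edgeR adjusted p = 0.149). At lysine 16, H4K16A differed by 0.56 (-0.08 to 1.21), H4K16Q by 0.11 (-0.51 to 0.74) and H4K16R by -0.14 (-0.84 to 0.57). H3E50A and H3E50Q differed by 0.45 (-0.60 to 1.51) and 0.13 (-0.50 to 0.76), the former on 12.5 counts per early library, and H3T11A and H3T11D by 0.04 (-0.14 to 0.23) and -0.27 (-0.61 to 0.07). Of the 10 strains at the residues that the study named as Sir3 contacts, 8 were above 0 with a median of 0.38 and none was called. The 4 strains at residues it named as buried had a median of -1.52, with none above 0 and none called. Over all strains 46.1% were above 0 and 2.59% were called, so the lack of a call in lists this short was near that share. The study chose both lists on these samples, so their direction is not independent evidence.

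The wild type, one of the more abundant strains, stood at 1.76 to 2.12 in the early and at 1.76 to 1.91 in the late libraries, means of 1.94 and 1.84. Its difference was -0.10 (95% interval -0.24 to 0.04), beside an SD between libraries of 0.15 early and 0.07 late. The sides did not differ in an exact permutation test within fractions (two-sided, p = 0.14 over 100 arrangements, smallest possible 0.02). The spread of levels over the 347 strains was 1.73 ± 0.10 (SD over 6 libraries) early and 1.66 ± 0.07 (4 libraries) late (exact permutation test, p = 0.24). The number of kept strains with fewer than 10 counts was 5.33 early and 6.25 late on average (exact permutation test, p = 0.47).

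All 9 called strains changed in the same direction in both fractions, which the test with the fraction as a block favours. Over all 347 strains the difference in the quiescent fraction had the sign of that in the non-quiescent fraction for 170, with a correlation across strains of 0.32 (Pearson's r, n = 347 strains of 1 culture, given as a description). The SD of the difference was 0.65 in the quiescent and 0.54 in the non-quiescent fraction. H4del17-24 rose by 2.17 in the quiescent and 1.21 in the non-quiescent fraction, and H3del4-15 differed by -4.07 and -3.01. H3Q68A differed by -3.18 and -0.34, H3L60A by -2.92 and -0.45 and H3Q5E by -2.11 and -0.50. H4K16R differed by 0.37 and -0.64. The test of the difference between fractions, the interaction in edgeR's quasi-likelihood fit, called 0 of 347 strains (0%). At an unadjusted p under 0.05 there were 79 strains (22.8%). Since the fractions of a day share an aliquot, the interaction was also fitted on the difference between the fractions per day (limma, 3 against 2 days) and in edgeR with day as a fixed block, and each called 0 strains, with 56 and 65 at an unadjusted p under 0.05. DESeq2 called 29, of which H3Q76A (-1.05), H4R36K (1.31), H4F100A (0.92) and H4K77R (-0.71) are described above. Without the quiescent library of day 7 edgeR called 16, H3Q5E, H3S86D, H3T11D, H4K59R and H4R36K among them, and without the non-quiescent library of day 1 it called 21, with H4R36K and H3del9-16 among them. For H3Q68A the interaction was -2.84 ± 1.34 and for H3Q5E -1.61 ± 0.63 (edgeR adjusted p = 0.205 and 0.148). None of the 9 strains that changed had a called interaction under any alternative run for that test. Which strains differ between the fractions thus depended on the test and on single libraries.

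**Figure D5:**
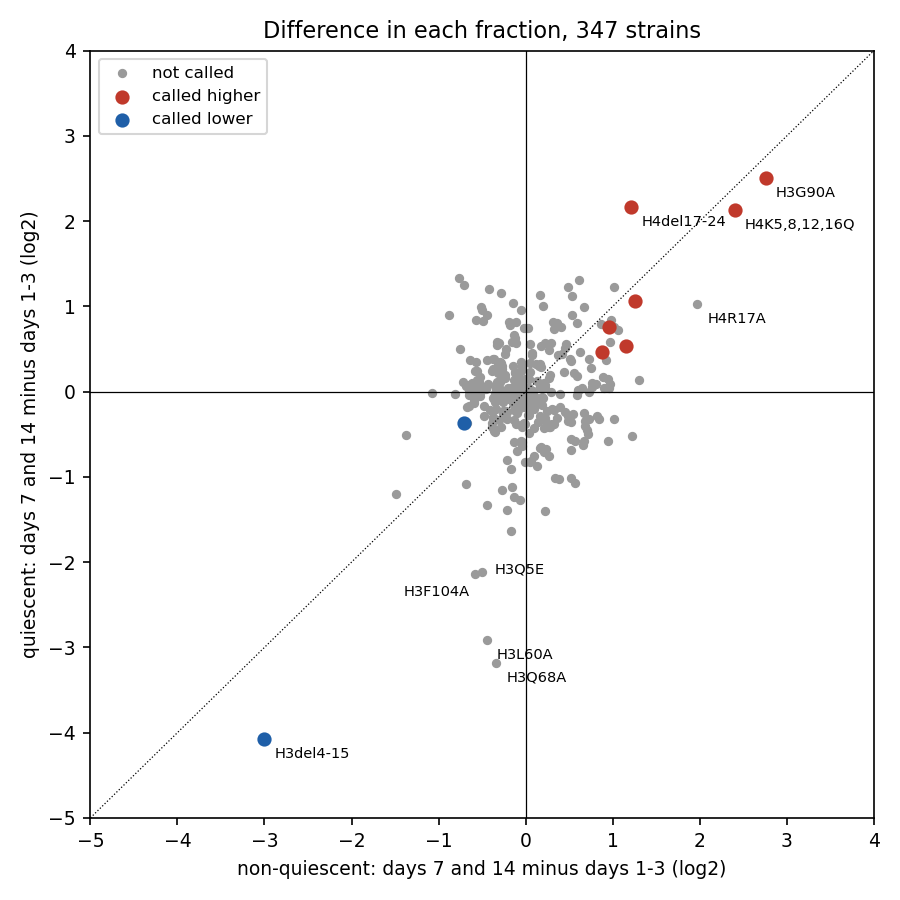
Difference in log2 level between days 7 and 14 and days 1 to 3 in the quiescent fraction (y axis) against that in the non-quiescent fraction (x axis) for 347 strains, called strains in colour, with the dotted line of equal differences. The 9 called strains lie in the quadrants of equal sign, and H3Q68A and H3L60A lie low in the quiescent fraction only by value, with no adjusted call of the difference.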

How the data were processed

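Genomic DNA of each fraction and day was amplified and sequenced by the authors, who counted up and down barcodes in single-end reads with get_seqs_from_fastq and match_barcodes_to_strain. The deposited values used here are raw counts per barcode. A deposited table of the authors' own log2 ratios was not used. Groups came from the labels of day and fraction. The wild type is listed 2 times under 1 barcode pair, and its first listing was used. Another 65 barcode pairs had no strain name and held 10.6% to 18.8% of the counts of the 10 libraries.

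The counts of both barcodes were added, only strains that averaged 10 or more counts over the 20 libraries were kept, 0 was replaced by 0.5, and each library was centred on its median strain. Differences and standard errors came from a linear model with the fraction as a block, with 95% intervals on 7 residual degrees of freedom. Calls came from edgeR 4.0.16 (glmQLFTest, R 4.3.3) scaled to the median strain, adjusted p under 0.05, with a biological coefficient of variation of 0.228 (0.206 for the interaction, 6 degrees of freedom). Alternatives used limma 3.58.1, DESeq2 1.42.0, other scales, filters and sets of libraries, and, added after seeing the data, the interaction with the fractions paired by day. The fit was also run on simulated independent counts with a stage effect and a common dispersion. The simulation held no fraction effect and no shared aliquots, so it does not cover these features of the data. Single values were compared by exact permutation of the stage within fractions. Tables were handled with pandas 2.3.3 and numpy 2.4.6, tests run with scipy 1.17.1 and plots drawn with matplotlib 3.10.9 (Python 3.11.15).

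Members and lists were chosen with earlier results of these data known. Named strains were to be called strains without overlap, with both barcodes in 1 direction and at least 50 counts on the higher side (up to 12 per direction, met by H4del17-24 and H3del4-15), the wild type and strains at H4K16, H4H18, H3E50 and H3T11, up to 3 called interactions per direction, and the highest and lowest strain of each list. The other 7 called strains and the uncalled strains outside these groups were named after their values were seen. Counts rest on amplified reads, so depth limits rare strains, of which 4 had a mean under 10 counts in the early libraries.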

Additional observations from a re-analysis of the deposited data

Results flagged for a closer look

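Among the named strains, single libraries stood far from the others of their side by Dixon's criterion, which chance meets in about 1 in 20 groups. It was applied to both sides of 58 named strains, so several such values arise by chance alone. Each side pools both fractions, and many strains were chosen as ends of lists, so that rate is only approximate here. On the early side these were H3T11A at 0.40 (non-quiescent, day 3), H4H18Q at 0.43 and H3S86D at 1.37 (both quiescent, day 1), H4G42A at -4.18 (non-quiescent, day 3) and H4R17K at -1.59 (non-quiescent, day 1). On the late side the quiescent library of day 14 was the one apart for H3F78A at -0.79, H3K115R at 1.01, H3K36A at -2.28, H4I66A at -1.70 and H4R17A at -3.20, and the non-quiescent library of day 7 for H4R67A at -2.13. Barcode pairs without a strain name held up to 18.8% of a library's counts and entered no comparison.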

How the results depend on the processing

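The number of called strains was 9 and stayed within 1.5 times that under library totals, limma, no filter, 0.5 added to every count and each barcode alone. It was 17 with TMM factors, 17 with the wild type as the scale, 32 with DESeq2's Wald test, 14 at a mean of at least 50 counts and 31 in limma with day as a random block. It was 4 in the non-quiescent libraries alone and 0 in the quiescent libraries alone, 0 without the fraction block, 0 over the mean of both fractions per day and 0 with day 5 on the late side. Leaving out both libraries of a day gave 4 (day 1), 1 (day 2), 7 (day 3), 0 (day 7) and 0 (day 14), and leaving out 1 library gave 0 (non-quiescent, day 14) to 16 (quiescent, day 1). The other libraries gave 1 (non-quiescent, day 1), 4 (each library of day 2 and of day 7), 6 (each of day 3) and 9 (quiescent, day 14), and the 1 strain called without the non-quiescent library of day 1 was H3del4-15. The fit over day means has 3 residual degrees of freedom. All 9 strains were among those called under TMM factors, library totals, the wild type scale, DESeq2, the stricter filter and the day block. The 9 differences kept their direction under every alternative run, but the calls did not all hold: H3del4-15 was called under 23 of 31, H3Q76E and H4del9-12 under 19, H4K5,8,12,16Q under 19 of 30, H3G90A under 16 of 31, H4del17-24 under 15, H4R36A and H4K59Q under 11 and H4T96D under 9. For the stage, no paired analysis was possible because each day lies on 1 side. Fractions of a day were treated through day means, with 0 calls, and through the day block, with 31. The day block estimated a correlation of -0.306 within days (limma's consensus correlation). A negative correlation lowers the standard error of the stage term, so the calls of the day block are no stricter for the shared aliquot. The interaction was paired by day in 2 alternatives chosen after seeing the data, which each called 0 strains with 3 residual degrees of freedom. It called 29 strains with DESeq2, and leaving out 1 library gave 0 to 21 calls, 21 without the non-quiescent library of day 1 and 16 without the quiescent library of day 7. The early and late spread of levels differed by -0.07 and by less than 1 SD from that under every alternative. Causes of these changes were not tested.

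Directions turned for 17 named strains, none of them called, whose differences were small or differed between the fractions. In the quiescent libraries alone the difference was 0.015 for the wild type, 0.0065 for H3T11D, 0.37 for H4K16R, -0.24 for H3A114S, -0.32 for H3K4A, -0.63 for H4G42A and 0.25 for H4del9-16. In the non-quiescent libraries alone it was -0.060 for H3T11A, -0.048 for H3E50A, -0.31 for H3E50Q, -0.33 for H4K16Q, -0.048 for H3K115R, 0.34 for H3K36A, -0.14 for H3K36R, -0.11 for H4F100A and 0.29 for H4K77R. Without both libraries of day 14 it was -0.040 for H3T11A, -0.085 for H3E50A, -0.067 for H3E50Q, -0.040 for H4K16Q, -0.070 for H3K115R and -0.021 for H3K79A, and for H4G42A it was -0.25 without day 3 and -0.071 without day 7. With day 5 on the late side it was -0.0072 for H3A114S, -0.030 for H3K115R, -0.16 for H4G42A and 0.0049 for H4del9-16. With 1 barcode it was -0.011 for H3K79A (up), -0.57 for H4G42A and 0.016 for H4K77R (down), and H4K77R stood at 0.033 with the wild type as the scale. Leaving out 1 library gave -0.032 to 0.087 for H3T11A, -0.13 to 0.24 for H3E50Q, -0.39 to 0.026 for H4K16R, -0.14 to 0.25 for H4K16Q, -0.068 to 0.20 for H3K115R, -0.036 to 0.17 for H3K79A, -0.21 to 0.26 for H4G42A and -0.17 to 0.029 for H4K77R.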
